A study of Homo sapiens with 6 samples.

Results

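The 47 genes described here were read at very low levels in 786-O control cells and were read at a moderate level in 7R, the sunitinib-resistant line of the same cells. They were selected on their measured levels among the 54261 gene rows of the count table: a mean of at least 5 counts per 1000000 (CPM) in the resistant libraries, a mean under 0.5 CPM in the control libraries, and at least 2 CPM in each resistant library. Of the 55 rows past these limits, 8 were left out by symbol (ABCA5, CACNB4, COLEC10, INHBE, OSBPL1A, PCLO, UNC13C and ZNF804A). The levels of resistant and control cells chose the genes, so the differences between the lines are given below as a description, with no test.

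786-O is an established clear-cell renal carcinoma cell line, and sunitinib is an inhibitor of receptor tyrosine kinases used against this cancer. Total RNA of the 7R line and of the 786-O control was sequenced as 3 libraries each. The labels do not say whether the drug was present at harvest, which dose was used to obtain the line, or whether a line was cultured separately for each of its libraries, and the p-values below therefore reflect only how far these particular libraries differ, which may be technical. The extraction text in the labels refers to a brain region, while every other label names the renal line.

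A gene can be silent because its promoter is packed in closed chromatin or carries methylated CpG dinucleotides, because no activator binds it, or because its RNA is degraded quickly. Cancer-testis antigens are a textbook case of such silencing: they are transcribed in germ cells, kept off in most other tissues by DNA methylation, and reappear in many tumours. Cells that survive a kinase inhibitor for a long time can differ from their parent line in chromatin state, in DNA copy number and by outgrowth of a subclone, none of which a count table records. In bulk RNA, more cells that express a gene and more RNA per expressing cell cannot be told apart.

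Total counts were 37919629 to 38131634 in the resistant libraries and 48264905 to 52221491 in the control libraries, and 3 counts correspond to 0.0787 to 0.0791 CPM in resistant libraries and 0.0574 to 0.0622 CPM in control libraries. All 12 renal carcinoma and renal epithelial markers were detected in both lines, among them PAX8, a renal lineage factor, at 465, 465 and 445 CPM in resistant libraries and 449, 492 and 507 CPM in control libraries. Of the 12, 9 were lower and 0 higher in resistant cells, beside 36.9% of all genes tested that were lower (test and scaling as given below); with scaling by library size alone in place of TMM 5 were lower and 3 higher, and with a trend on GC content and length removed 6 were lower and 3 higher. Of 12 neuronal markers, STMN2, NEFM, GAD2 and SLC17A6 had no count in any library, and the summed level of the list was 158 to 177 CPM in resistant libraries against 358 to 378 CPM in control libraries. Of 8 glial markers, OLIG1, OLIG2 and MOG had no count, and the list summed to 45.4 to 48.4 CPM in resistant libraries against 19.6 to 25 CPM in control libraries. Of 8 leukocyte markers, PTPRC and CD3E had no count, and the list summed to 93.6 to 102 CPM in resistant libraries and 96.5 to 105 CPM in control libraries. Of 6 neuronal markers tested 2 were higher, SNAP25 and SYT1 (log2 fold change 1.96 and 2.49), and 3 were lower, TUBB3 (-2.29) among them. TUBB3 and NEFL made up most of the neuronal sum. Of 3 glial markers tested all 3 were higher. For both lists, the shares of all genes tested were 39.3% higher and 36.9% lower. The glial sum was almost all MBP (0.65), and AQP4 was at most 0.448 CPM in any library. The leukocyte sum was mostly CD74 and CD68, of which CD68 was lower (-2.19). Endothelial markers summed to 0.870 to 1.08 CPM in resistant libraries against 0.0207 to 0.536 CPM in control libraries, fibroblast and muscle markers to 21.3 to 46.7 CPM against 10.1 to 14.8 CPM in control libraries, and hepatocyte markers to 137 to 144 CPM against 29.8 to 32.1 CPM in control libraries. The hepatocyte sum was almost all SERPINA1, with ALB, APOA1 and TTR at most 0.122 CPM in any library, and in the fibroblast and muscle list LUM was higher (log2 fold change 4.16) and ACTA2 lower (-2.83). The part of other cell types in the levels below was not tested further.

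The name "switched on" is a shorthand. All 47 genes had counts in each resistant library, and 44, 46 and 44 of them also had at least 1 count in control libraries 1, 2 and 3. Summed over the 3 libraries of a line, a member had 571 to 1732 counts in resistant cells against 1 to 74 counts in control cells. The members together made up 293, 419 and 440 CPM of resistant libraries 1, 2 and 3, against 15.9, 12.4 and 12.2 CPM of control libraries 1, 2 and 3.

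Promoter sequences from RefSeq (GRCh38.p14) were at hand for 16 of the 47 members, each running from 250 bases before to 50 bases after the annotated start. The 5 below are shown because they span the range found among the members, from a dense CpG island to a stretch with 1 CpG, and because CpG content is the sequence feature that bears on silencing by methylation. Each reads 5′ to 3′ on the strand of its gene, and capitals mark CpG dinucleotides.
CACNA1D, chr3:53494361-53494660, plus strand: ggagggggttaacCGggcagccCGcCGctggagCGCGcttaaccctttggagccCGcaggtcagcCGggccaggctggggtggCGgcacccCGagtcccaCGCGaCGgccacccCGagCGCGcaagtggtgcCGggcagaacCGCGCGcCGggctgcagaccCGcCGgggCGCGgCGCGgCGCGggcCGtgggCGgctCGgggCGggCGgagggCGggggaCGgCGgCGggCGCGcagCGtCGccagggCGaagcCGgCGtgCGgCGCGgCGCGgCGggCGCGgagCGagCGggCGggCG
MCOLN3, chr1:85048451-85048750, minus strand: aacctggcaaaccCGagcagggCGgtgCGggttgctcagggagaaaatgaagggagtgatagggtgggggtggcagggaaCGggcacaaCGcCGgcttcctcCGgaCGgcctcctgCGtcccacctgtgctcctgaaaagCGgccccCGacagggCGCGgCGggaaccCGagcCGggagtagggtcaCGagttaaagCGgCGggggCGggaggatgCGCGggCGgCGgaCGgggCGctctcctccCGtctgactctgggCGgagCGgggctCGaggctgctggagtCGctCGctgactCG
VWDE, chr7:12403816-12404115, minus strand: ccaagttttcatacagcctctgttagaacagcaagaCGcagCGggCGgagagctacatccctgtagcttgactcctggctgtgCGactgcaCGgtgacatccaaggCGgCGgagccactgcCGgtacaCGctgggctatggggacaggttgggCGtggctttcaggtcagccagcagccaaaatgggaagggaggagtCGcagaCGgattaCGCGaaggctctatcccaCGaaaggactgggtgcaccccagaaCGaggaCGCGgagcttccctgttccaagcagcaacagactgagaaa
RASSF6, chr4:73620582-73620881, minus strand: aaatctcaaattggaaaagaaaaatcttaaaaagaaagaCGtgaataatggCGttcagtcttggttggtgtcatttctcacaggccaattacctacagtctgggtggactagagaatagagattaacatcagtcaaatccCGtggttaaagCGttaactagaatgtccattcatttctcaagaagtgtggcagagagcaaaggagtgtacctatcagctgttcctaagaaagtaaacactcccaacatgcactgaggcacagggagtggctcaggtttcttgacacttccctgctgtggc
LOC107986813, chr7:82335079-82335378, minus strand: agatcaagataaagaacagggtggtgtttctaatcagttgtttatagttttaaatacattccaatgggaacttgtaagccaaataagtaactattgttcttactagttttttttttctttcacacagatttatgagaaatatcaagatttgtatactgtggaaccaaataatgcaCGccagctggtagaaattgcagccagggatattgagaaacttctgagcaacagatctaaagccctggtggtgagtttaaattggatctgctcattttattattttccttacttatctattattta

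The CACNA1D window held 56 CpGs at 83.0% G+C and the MCOLN3 window 33 at 70.3%; CpG islands of this kind are unmethylated in many tissues. VWDE was intermediate, with 18 CpGs at 59.0% G+C. RASSF6 held 4 CpGs at 42.7%, and LOC107986813 held 1 at 32.7%. The LOC107986813 window also contains a coding exon of CACNA2D1 on the same strand in the GENCODE 29 annotation, because this non-coding gene starts inside CACNA2D1. The window of LOC105375470, with 31 CpGs, holds an exon of LSM8 on the opposite strand. Over the 16 windows the median was 7.5 CpGs (range 1 to 56), against 14 over all 27305 promoters of the table. Windows with 15 or more CpGs made up 43.75% of the members (7 of 16) and 48.8% of all promoters, and windows with 5 or fewer made up 43.75% of the members (7 of 16) and 34.4% of all promoters. Windows of both kinds thus occurred among these 16; no test was run.

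Short motifs were searched on both strands of the 16 windows. CCAAT, the box bound by NF-Y, was found in 8 windows and in 35.7% of all promoters. GGGCGG, the core bound by SP1, was found in 5 windows and in 44.6% of all promoters, and it can overlap CpGs. TATAAA was found in 1 window and in 12.0% of all promoters, and TGANTCA, the AP-1 motif, in 1 window and in 7.76% of all promoters. TGACGTCA (1.98% of all promoters), CACGTG (7.44%), CTTTGA (13.1%) and CCGGAAGT (4.44%) were found in none of the 16 windows. A match or its absence in such a window is a description of these letters and does not place a factor there.

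Protein-coding genes were a minority of the set. Of the 47, 14 (29.8%) are protein-coding in RefSeq, 14 (29.8%) are long non-coding RNAs, 10 (21.3%) are pseudogenes and 9 (19.1%) could not be matched to the RefSeq table by symbol or gene ID. Among all 2621 genes with a resistant level in the same range, 79.5% were protein-coding, 9.84% were long non-coding RNAs, 6.26% were pseudogenes, 0.763% were of another kind and 3.62% were unmatched. The 8 genes left out by symbol, the protein-coding PCLO among them, are not counted in the 47, while the 2621 genes were not filtered by symbol. The selection also favours genes that are nearly silent in control cells, and non-coding genes are often weakly transcribed. The 2 sets were therefore not tested against each other. Median resistant levels of the 4 kinds lay between 6.03 and 7.89 CPM, and medians of the control levels between 0.196 CPM for long non-coding RNAs and 0.392 CPM for pseudogenes. CPM is not corrected for gene length, so levels are compared between lines and not between genes.

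**Figure D1:**
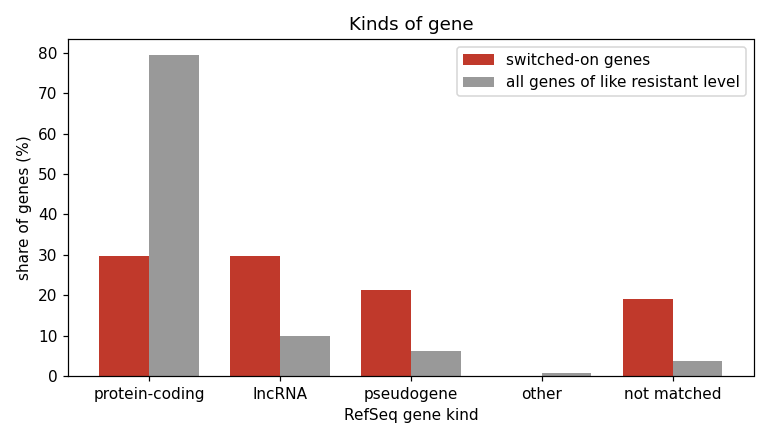
Share of genes (%) of each RefSeq gene kind among the 47 switched-on genes (red) and among all 2621 genes with a resistant mean in the same CPM range (grey). Protein-coding genes make up 29.8% of the switched-on genes and 79.5% of the comparison set. Only the switched-on genes were filtered by symbol.

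**Figure D2:**
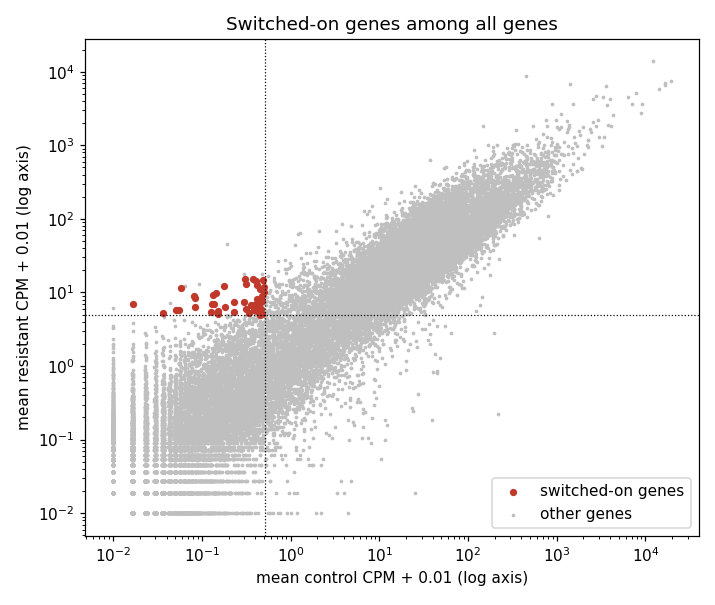
Mean CPM in the 3 resistant libraries (vertical, log axis) against mean CPM in the 3 control libraries (horizontal, log axis), with 0.01 CPM added to both; each point is a gene, red points are the 47 switched-on genes, and dotted lines mark the limits of 5 and 0.5 CPM. The red points fill the corner that the limits define, and the grey points in the same corner include the 8 genes left out by symbol.

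In the test across all genes (edgeR's quasi-likelihood test with Benjamini-Hochberg adjustment at 0.05), 39.3% of the 16642 genes tested were higher in resistant cells and 36.9% were lower, so a call in either direction was common in these libraries. With scaling by library size alone the shares were 47.2% and 28.4%, and with the trend on GC content and length removed they were 33.9% and 33.1% of 13908 genes. Every resistant library lay above every control library in 49.6% of the genes tested. All 47 members were tested and were higher, which the selection fixes and from which nothing is read. The limits also put every resistant library of a member above every control library, so that separation is not a result either.

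The ion channel and transport genes of the set reached the same order of level in all resistant libraries. CACNA1D encodes the pore-forming subunit of the L-type calcium channel Cav1.3 and was read at 9.32, 11.2 and 10.2 CPM in resistant libraries 1, 2 and 3 against 0.663, 0.428 and 0.383 CPM in control libraries 1, 2 and 3. MCOLN3, a cation channel of endosomes and lysosomes, was read at 8.14, 10.4 and 9.34 CPM in resistant libraries and 0.145, 0.183 and 0.0383 CPM in control libraries. The resistant libraries of CACNA1D lay close together, and so did those of MCOLN3. SLC26A7, an anion exchanger known from kidney and thyroid, was read at 4.86, 7.47 and 7.70 CPM in resistant libraries and 0.518, 0.326 and 0.191 CPM in control libraries. GRIK2, a kainate-type glutamate receptor subunit, was read at 5.73, 4.64 and 5.01 CPM in resistant libraries and 0.559, 0.183 and 0.670 CPM in control libraries. Resistant replicate 1 was the lowest of its line for SLC26A7 and the highest for GRIK2. As the ratio of CPM from the summed counts of each line, with a 95% interval that covers counting error only, resistant over control was 21.0 (16.6 to 27.0) for CACNA1D and 77.1 (48.5 to 131) for MCOLN3. The ratio was 19.6 (14.7 to 26.5) for SLC26A7 and 10.8 (8.43 to 14) for GRIK2, the smallest in the set.

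Adhesion and synapse-organising genes form a second group. ADGRB3, an adhesion G protein-coupled receptor of the brain-specific angiogenesis inhibitor family, was read at 6.12, 8.47 and 7.41 CPM in resistant libraries against 0.373, 0.143 and 0.345 CPM in control libraries. CNTN6, a contactin of developing neurons, was read at 3.73, 8.60 and 6.36 CPM in resistant libraries against 0.539, 0.245 and 0.517 CPM in control libraries. IL1RAPL1, a synaptic receptor of the interleukin-1 receptor family that is linked to X-chromosomal intellectual disability, was read at 6.30, 6.35 and 6.43 CPM in resistant libraries against 0.0829, 0.0408 and 0.0957 CPM in control libraries. IL1RAPL1 had the closest resistant libraries of the set, while CNTN6 varied by more than its lowest resistant value. The ratio of summed counts was 25.5 (18.8 to 35.5) for ADGRB3, 14.3 (11.1 to 18.8) for CNTN6 and 86.5 (48.1 to 174) for IL1RAPL1.

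Signalling, polarity and cytoskeletal genes were represented by SAMD12, MPP7, RASSF6 and EML5. SAMD12, a sterile alpha motif protein whose intronic repeat expansion causes a familial myoclonic epilepsy, was read at 11.5, 16.9 and 15.9 CPM in resistant libraries and 0.725, 0.408 and 0.287 CPM in control libraries. MPP7, a membrane-associated guanylate kinase that works with DLG1 at epithelial junctions, was read at 8.35, 13.3 and 17.6 CPM in resistant libraries and 0.332, 0.183 and 0.402 CPM in control libraries. RASSF6, a Ras-association protein that binds the MST kinases of the Hippo pathway, was read at 5.28, 13.4 and 14.3 CPM in resistant libraries and 0.290, 0.530 and 0.517 CPM in control libraries. In each of these 3 genes resistant replicate 1 was the lowest of its line. EML5, a microtubule-associated protein, averaged 6.86 ± 1.32 CPM in resistant cells and 0.119 ± 0.0352 CPM in control cells (SD, n = 3 each). Resistant over control, the ratio of summed counts was 31.5 (24.8 to 40.7) for SAMD12, 42.5 (31.7 to 58.3) for MPP7, 24.5 (19.2 to 31.8) for RASSF6 and 57.0 (35.8 to 96.7) for EML5.

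VWDE, predicted to be a secreted protein with von Willebrand factor and EGF-like domains, was read at 7.14, 9.07 and 9.23 CPM in resistant libraries against 0.124, 0.0611 and 0.0383 CPM in control libraries. Its ratio of summed counts was 115 (64.2 to 232). LRRC69, a leucine-rich repeat protein, was read at 5.49, 6.90 and 5.43 CPM in resistant libraries against 0.559, 0.428 and 0.364 CPM in control libraries. That the lines did not overlap for either gene is fixed by the limits.

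MAGEA1, the cancer-testis antigen of the set, came closest to an off state in control cells. It had 330, 215 and 239 counts in resistant libraries 1, 2 and 3, which is 8.67, 5.64 and 6.30 CPM, against 0, 1 and 0 counts in control libraries 1, 2 and 3. The single control count, 0.0204 CPM, lies below the 0.0611 CPM that 3 counts make in that library, and the ratio of summed counts, 1027, has a counting interval of 184 to 40633. MAGEA1 belongs to a family of closely related X-linked genes, and counts can be split among near-identical copies. Of 101 cancer-testis antigens in the table, MAGEA1 included, 63 had no count in any library. For scale, 21342 to 22988 of all 54261 gene rows had counts in a given library. That range takes each library singly, so it is not the same measure as no count in any library. Of the 101, 5 were tested. MAGEA1 and TDRD3, a Tudor-domain protein expressed well beyond the testis, were higher and 0 were lower. The selection fixes the call of MAGEA1, so only that of TDRD3 can be read beside the share of all genes. Among all genes tested 39.3% were higher and 36.9% were lower. TDRD3 was read at 14.6, 20.9 and 19.3 CPM in resistant libraries against 5.43, 5.40 and 5.76 CPM in control libraries (log2 fold change 1.38 ± 0.16 SE, adjusted p 9.17e-06; 0.42 with the trend on GC content and length removed). The germline antigens PRAME (log2 fold change -0.48 ± 0.58, adjusted p 0.459) and PIWIL4 (-0.27 ± 0.22, adjusted p 0.263) did not pass the test. With the GC and length trend removed 2 of the 5 were lower, PIWIL4 (-0.73, adjusted p 0.00946) and TDRD7 (-0.42, adjusted p 0.000598).

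**Figure D3:**
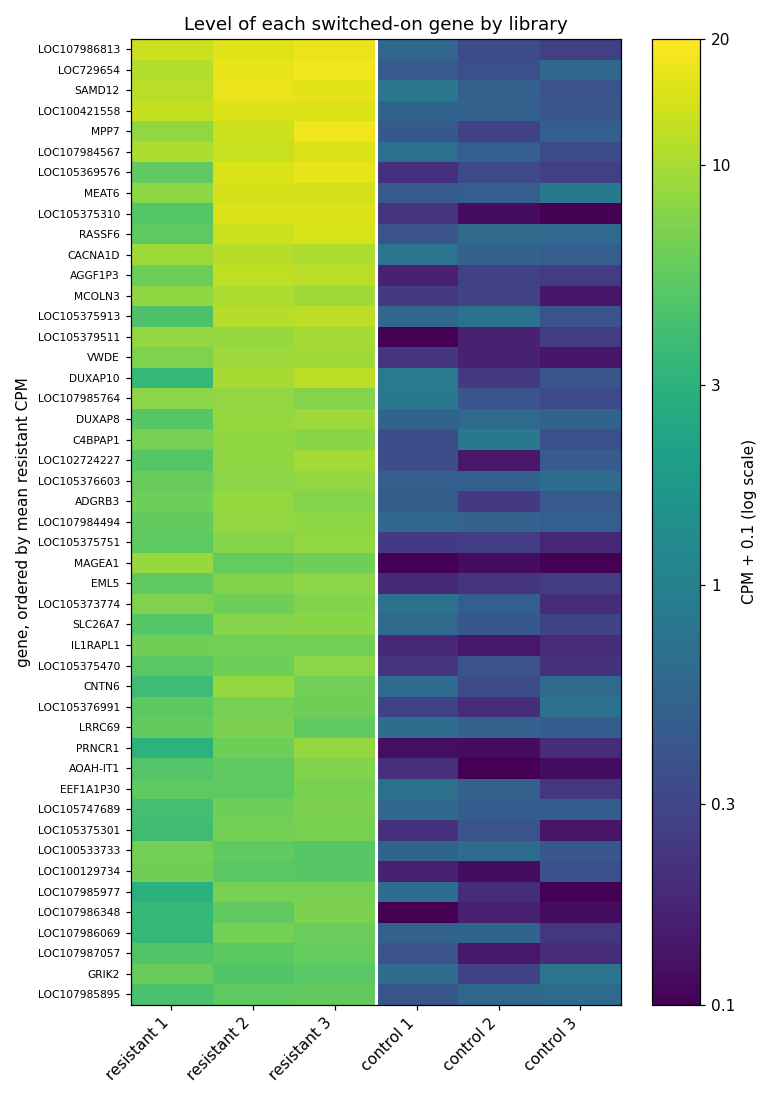
Level of each of the 47 switched-on genes (rows) in the 3 resistant and then the 3 control libraries (columns), as colour on a log scale of CPM. No resistant value overlaps a control value in any row, which the limits fix. Resistant replicate 1 is the lowest of the resistant columns in 40 of the 47 rows.

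The long non-coding RNAs held the member with the highest mean CPM, LOC107986813, at 13.3, 15.4 and 16.9 CPM in resistant libraries against 0.477, 0.245 and 0.172 CPM in control libraries. LOC105375310 was read at 4.81, 14.8 and 15 CPM in resistant libraries against 0.124, 0.0204 and 0 CPM in control libraries, 1314 counts against 7 in all. LOC105369576 was read at 5.38, 14.8 and 16.2 CPM in resistant libraries against 0.104, 0.224 and 0.172 CPM in control libraries. In LOC105375310 and LOC105369576 resistant replicate 1 stood well below the other 2 resistant libraries. MEAT6 was read at 8.01, 14.1 and 13.9 CPM in resistant libraries against 0.352, 0.387 and 0.728 CPM in control libraries. LOC105375913 was read at 4.44, 10.9 and 11.7 CPM in resistant libraries against 0.477, 0.632 and 0.287 CPM in control libraries. AOAH-IT1, an RNA from an intron of AOAH, averaged 5.80 ± 1.30 CPM in resistant cells and 0.0409 ± 0.0551 CPM in control cells. The ratio of summed counts was 24.2 (19.2 to 31.0) for MEAT6, 19.6 (15.3 to 25.3) for LOC105375913 and 145 (66.1 to 395) for AOAH-IT1. The other long non-coding RNAs were LOC102724227, LOC105376603, LOC105375751, LOC105375470, PRNCR1, LOC105375301, LOC107985977 and LOC107985895, with mean levels from 5.0 to 7.49 CPM in resistant cells and from 0.0456 to 0.452 CPM in control cells.

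The 10 members of this kind are annotated as pseudogenes, and counts of a pseudogene can include reads of its parent gene or of another copy. LOC729654 was read at 10.7, 16.7 and 17.8 CPM in resistant libraries against 0.352, 0.265 and 0.498 CPM in control libraries. LOC100421558 was read at 12.4, 15.1 and 15 CPM in resistant libraries against 0.456, 0.428 and 0.326 CPM in control libraries. AGGF1P3, a copy of the angiogenic factor gene AGGF1, was read at 5.96, 11.9 and 11.5 CPM in resistant libraries against 0.0622, 0.183 and 0.153 CPM in control libraries. Resistant replicate 1 was the lowest of its line in all 3. LOC105379511, which RefSeq now names NCOR1P4 after the co-repressor gene NCOR1, was read at 8.30, 8.63 and 9.78 CPM in resistant libraries against 0, 0.0611 and 0.153 CPM in control libraries. DUXAP8 was read at 4.91, 8.55 and 9.18 CPM in resistant libraries against 0.456, 0.509 and 0.440 CPM in control libraries. DUXAP10, like DUXAP8 a copy of the double homeobox gene DUXA, was read at 3.28, 9.81 and 11.6 CPM in resistant libraries against 0.787, 0.143 and 0.306 CPM in control libraries. The gap was narrowest here, with the lowest resistant library 4.17 times the highest control library, and reads of DUXAP8 and DUXAP10 may not be separable. C4BPAP1, a copy of the complement regulator gene C4BPA, was read at 6.59, 8.26 and 7.78 CPM in resistant libraries against 0.249, 0.734 and 0.268 CPM in control libraries. EEF1A1P30, LOC100533733 and LOC100129734 had mean levels from 5.42 to 5.78 CPM in resistant cells and from 0.117 to 0.444 CPM in control cells.

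The 9 genes without a match to RefSeq are named here only by the symbol in the count table. LOC107984567 was read at 10.4, 12.6 and 15 CPM in resistant libraries against 0.601, 0.387 and 0.230 CPM in control libraries. LOC107985764 was read at 7.93, 8.29 and 7.33 CPM in resistant libraries against 0.725, 0.306 and 0.230 CPM in control libraries. That both were separated between the lines is fixed by the limits. The others (LOC107984494, LOC105373774, LOC105376991, LOC105747689, LOC107986348, LOC107986069 and LOC107987057) had mean levels from 5.15 to 7.31 CPM in resistant cells and from 0.0268 to 0.436 CPM in control cells. Among them LOC107986348 was the nearest to off in control cells, with 597 counts in resistant cells against 4 in control cells.

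The limits of the selection cut through a continuum. Just inside the resistant limit were LOC107985895 at 5.0, GRIK2 at 5.13, LOC107987057 at 5.15 and LOC107986069 at 5.20 CPM. Just outside it, with control means under 0.5 CPM, were LOC105375384 at 4.95, LOC107986010 at 4.85, LOC107985783 at 4.74 and LOC105377907 at 4.72 CPM in resistant cells. At the control limit the members closest to it were CACNA1D at 0.491, MEAT6 at 0.489, SAMD12 at 0.473 and GRIK2 at 0.471 CPM. Just past it were LOC107986871, with means of 8.99 CPM in resistant and 0.501 CPM in control cells, and SYT16, with 7.26 CPM in resistant and 0.509 CPM in control cells. LOC107985193 had 6.69 CPM in resistant and 0.513 CPM in control cells, and AJAP1 had 5.59 CPM in resistant and 0.518 CPM in control cells.

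The resistant libraries did not carry the genes equally. Resistant replicate 1 was the lowest of the 3 resistant libraries for 40 of the 47 members (85.1%), against 909 of 2574 other genes in the same range of resistant levels (35.3%). Its level over the mean of replicates 2 and 3 had a median of 0.708 over the members (range 0.307 to 1.45), against 1.03 over the other genes. The members most above the other resistant libraries in replicate 1 were MAGEA1 at 1.45, LOC100533733 at 1.28, LOC100129734 at 1.26 and GRIK2 at 1.19. The highest over the lowest resistant library had a median of 1.52 over the members and 1.28 over the other genes, and the members' median was 1.09 without replicate 1. Protein-coding members were lowest in replicate 1 in 11 of 14 cases and non-coding or unmatched members in 29 of 33.

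Other gene sets moved in the same way in replicate 1. Of 133 non-members that were called higher by at least 8-fold and had a mean of at least 5 CPM in resistant cells, 105 (78.9%) were lowest in replicate 1. Tested genes with a GC content of at most 42.9% were lowest in replicate 1 in 75.5% of cases, and those of at least 56.6% in 11.8%. Across 13897 tested genes the GC content had a rank correlation of 0.53 with the level in replicate 1 over the mean of replicates 2 and 3, and of -0.69 with the log2 fold change of resistant over control; genes of one library share its preparation and are not independent. A GC value was at hand for 20 of the 47 members (42.6%), too few to describe the set. These 20 had a median GC content of 41.7%, against 48.9% of tested genes. They were also higher in resistant cells with the GC and length trend removed, a call that the size of the selected gap fixes. The part of GC content in the members' levels was not tested.

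**Figure D4:**
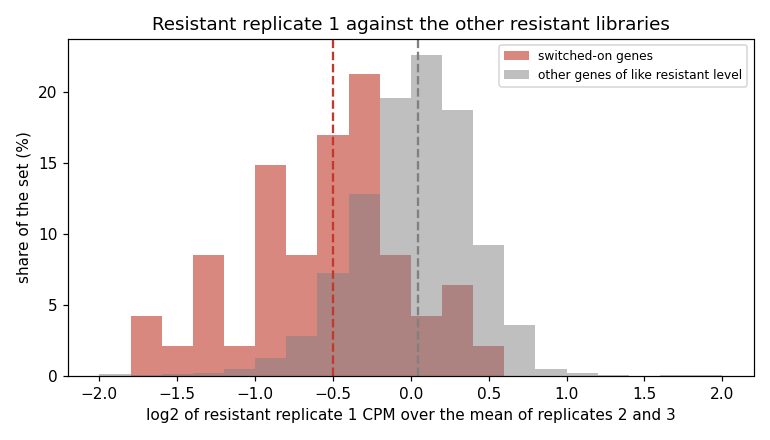
Distribution (share of the set, %) of the log2 ratio of resistant replicate 1 to the mean of resistant replicates 2 and 3, for the 47 switched-on genes (red) and for 2574 other genes in the same range of resistant CPM (grey); dashed lines are medians. The red median corresponds to a ratio of 0.708 and the grey median to 1.03.

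The neighbourhood of the genes was read from the RefSeq gene order, which placed 38 of the 47 members. The selection did not use the neighbours' values, except for PCLO, which met the level limits and was left out by symbol. The nearest tested protein-coding gene on each side of each member, leaving out members, gave 68 different genes, of which 47 (69.1%) were higher in resistant cells, 11 (16.2%) were lower and 10 did not pass the test. Among all 12205 protein-coding genes tested, 37.4% were higher and 43.6% were lower. The median log2 fold change was 1.03 over the neighbours, -0.12 over protein-coding genes and 0.05 over all genes tested. Without PCLO and without the 6 neighbours that overlap a member, a count chosen after seeing the data, 41 of 61 (67.2%) were higher and 10 (16.4%) lower, with a median of 0.94. Over the 3 nearest genes on each side 119 of 202 (58.9%) were higher and 37 (18.3%) lower. Of the 36 members with a neighbour on both sides, 19 had both higher, 12 had 1 higher, and 2 had both lower. These counts include GSTT1, called lower and taken as a neighbour of DUXAP8, although its position in the gene order is uncertain.

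Neighbours were also poorer in GC than other genes, with a median GC content of 43.4% against 48.9%. With the GC and length trend removed, 30 of 65 neighbours (46.2%) were higher and 17 (26.2%) lower, against 33.9% and 33.1% of all genes in that fit. The median log2 fold change was 0.25 over these neighbours and 0.01 over all genes in that fit. Of the 45 neighbours called higher that had a GC value, 28 were still higher, 11 did not pass the test and 6 were lower in that fit. Scaling by library size alone moved the median of all genes to 0.39 and that of the neighbours to 1.37. Of the 68 neighbours, 7 (10.3%) reached a log2 fold change of 3, against 4.74% of all genes tested. Unlike the neighbours, all genes tested include non-coding genes and the members themselves. Without PCLO and the neighbours that overlap a member, 4 of 61 neighbours (6.56%) reached a log2 fold change of 3.

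**Figure D5:**
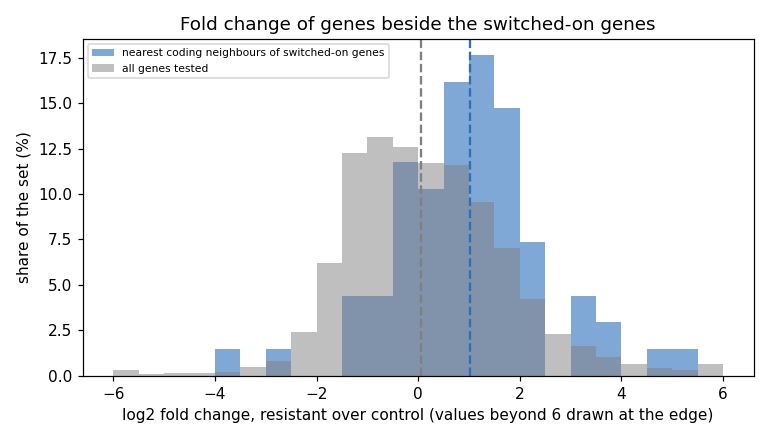
Distribution (share of the set, %) of the log2 fold change of resistant over control for the 68 nearest protein-coding neighbours of the switched-on genes (blue) and for all 16642 genes tested (grey); values beyond 6 are drawn at the edge and dashed lines are medians. The neighbours' median lies at 1.03 and that of all genes at 0.05.

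Some members lie inside or beside a gene that changed strongly. AOAH-IT1 lies within AOAH on the same strand; AOAH, the enzyme that deacylates bacterial lipopolysaccharide, was read at 53.6, 70.4 and 70.8 CPM in resistant libraries against 1.45, 0.998 and 1.38 CPM in control libraries (log2 fold change 5.32 ± 0.19, adjusted p 3.03e-09). LOC107986813 lies within CACNA2D1, an auxiliary calcium channel subunit, which was read at 88.4, 112 and 121 CPM in resistant libraries against 9.61, 9.31 and 6.49 CPM in control libraries (3.32 ± 0.17, adjusted p 4.29e-08). The resistant libraries of both host genes lay far above the control libraries, and host and nested RNA cannot be told apart where their reads overlap. PCLO, a scaffold of the presynaptic active zone, is the next coding gene on the other side of LOC107986813 and was higher by 4.89 ± 0.33 on the log2 scale (adjusted p 1.76e-07). PCLO itself met the level limits and was left out by its symbol. CACNA1D and CACNA2D1, on different chromosomes, encode parts of the same kind of channel complex. With the GC and length trend removed the log2 fold changes were 5.35 for AOAH, 2.60 for CACNA2D1 and 3.94 for PCLO.

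MCOLN2 adjoins its paralogue MCOLN3 and was read at 14, 15.7 and 12.8 CPM in resistant libraries against 1.28, 0.958 and 0.632 CPM in control libraries (log2 fold change 3.55 ± 0.23, adjusted p 1.44e-07). SYDE2, a GTPase-activating protein on the other side of MCOLN3, was higher by 1.93 ± 0.16 (adjusted p 5.76e-07). Both neighbours of MCOLN3 thus rose, and both were also higher with the GC and length trend removed (2.79 and 0.83). PAPPA2, a protease of insulin-like growth factor binding proteins, adjoins the pseudogene LOC100129734 and was read at 88.7, 124 and 132 CPM in resistant libraries against 5.95, 8.25 and 7.62 CPM in control libraries (3.63 ± 0.19, adjusted p 4.28e-08). CXCL8, the neutrophil chemokine interleukin-8, is the nearest tested coding gene on one side of RASSF6 and was read at 179, 239 and 275 CPM in resistant libraries against 16.7, 17.6 and 17.8 CPM in control libraries (3.39 ± 0.16, adjusted p 2.41e-08; 2.14 with the GC and length trend removed). The resistant libraries of PAPPA2 and CXCL8 lay above all control libraries, with replicate 1 the lowest. On the other side of RASSF6, AFP, the fetal albumin-like protein, passed the test with all libraries (1.5 ± 0.56, adjusted p 0.0276). It did not pass without resistant replicate 2 or 3 or without control replicate 1, 2 or 3, with adjusted p 0.0527 to 0.149.

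CYP4F11, a fatty acid omega-hydroxylase that adjoins the pseudogene LOC729654, was higher by 2.47 ± 0.16 (adjusted p 1.67e-07), while OR10H1, an olfactory receptor on the other side, was lower by -3.69 ± 0.73 (adjusted p 0.000579) at 0 to 0.0525 CPM in resistant libraries against 0.364 to 0.435 CPM in control libraries. NPAS2, a circadian transcription factor next to LOC105375310, was read at 5.33, 4.62 and 3.43 CPM in resistant libraries against 0.518, 0.713 and 1.17 CPM in control libraries (2.12 ± 0.32, adjusted p 6.58e-05). ROBO1, a receptor for SLIT guidance proteins next to AGGF1P3, was higher by 1.57 ± 0.13 (adjusted p 6.70e-07). The long non-coding RNA LOC105376603 (LINC02742 in RefSeq) and the pseudogene LOC100421558 lie side by side, with no coding start between them, and share the neighbours METTL15 (1.55 ± 0.15, adjusted p 1.93e-06) and ARL14EP (1.41 ± 0.15, adjusted p 3.66e-06). LOC105376603 was read at 5.75, 7.89 and 8.36 CPM in resistant libraries against 0.394, 0.408 and 0.555 CPM in control libraries. With the GC and length trend removed METTL15 stood at 0.42 (adjusted p 0.00409) and ARL14EP did not pass the test (0.25, adjusted p 0.0695).

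Not every neighbourhood was higher. ZNF185, an actin-associated LIM protein beside MAGEA1, was read at 19.7, 15.7 and 17.6 CPM in resistant libraries against 76.8, 84.3 and 87.8 CPM in control libraries (log2 fold change -2.58 ± 0.13, adjusted p 3.07e-08). ZNF275 on the other side of MAGEA1 did not pass the test (-0.14 ± 0.10, adjusted p 0.203). TGFA, a ligand of the EGF receptor that contains LOC107985895 on the same strand, was read at 297, 224 and 265 CPM in resistant libraries against 299, 325 and 326 CPM in control libraries (-0.62 ± 0.12, adjusted p 0.000395). LOC107985895, at 4.23, 5.27 and 5.51 CPM in resistant libraries against 0.311, 0.489 and 0.517 CPM in control libraries, thus went the other way from its host. The fall of TGFA depended on the scaling. It was -0.27 with library size alone (adjusted p 0.0497) and -0.23 with the GC and length trend removed (adjusted p 0.0308). Both genes beside DUXAP8 in the gene order used were slightly lower on this scale, GSTT1 by -0.33 ± 0.14 (adjusted p 0.0429) and IL17RA by -0.39 ± 0.10 (adjusted p 0.00314). With scaling by library size alone they stood at 0.01 and -0.05. The start listed for GSTT1 may belong to an alternate sequence rather than the main chromosome, so its place beside DUXAP8 is uncertain. GSTT1 did not pass without resistant replicate 3 or without control replicate 2 or 3 (adjusted p 0.0618 to 0.201). EML5 overlaps ZC3H14, which was higher by 0.37 ± 0.13 (adjusted p 0.0214) and did not pass the test with the GC and length trend removed (-0.10, adjusted p 0.366), without resistant replicate 2 or without control replicate 2 or 3 (adjusted p 0.112 to 0.140).

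Members were spread over 15 chromosomes, with the most on chromosome 8, which held 6 of the 38 placed members (15.8%) and 3.50% of the tested genes. These 6 are SAMD12, LRRC69, SLC26A7, LOC105375751, PRNCR1 and LOC105375913. LRRC69 and SLC26A7 overlap in part, and LOC105375751 and PRNCR1 follow each other with no coding start between them, so these pairs are not independent. LOC105375751 was read at 5.25, 7.50 and 8.33 CPM in resistant libraries against 0.145, 0.163 and 0.0766 CPM in control libraries. PRNCR1, a long non-coding RNA first described in prostate cancer, was read at 2.94, 6.14 and 8.47 CPM in resistant libraries against 0.0207, 0.0204 and 0.0957 CPM in control libraries. The resistant libraries of both rank in the same way, with replicate 1 the lowest. PCAT1, another prostate cancer-associated RNA that lies inside LOC105375751, was read at 0.420, 1.29 and 2.11 CPM in resistant libraries and had no count in control libraries.

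FAM84B overlaps LOC105375751 and was read at 162, 143 and 167 CPM in resistant libraries against 27.7, 22.1 and 25.9 CPM in control libraries (log2 fold change 2.30 ± 0.12, adjusted p 4.54e-08), while POU5F1B, a retrogene of the pluripotency factor gene POU5F1 on the other side, did not pass the test (0.04 ± 0.28, adjusted p 0.897). OTUD6B, a deubiquitinase beside LRRC69, was read at 35.2, 51.5 and 48.8 CPM in resistant libraries against 9.63, 7.64 and 5.99 CPM in control libraries (2.21 ± 0.18, adjusted p 6.69e-07; 0.92 with the GC and length trend removed), and RUNX1T1 beyond SLC26A7 did not pass the test (0.58 ± 0.54, adjusted p 0.339). EXT1, a heparan sulfate polymerase beside SAMD12, did not pass it either (-0.16 ± 0.10, adjusted p 0.139), but was lower with the GC and length trend removed (-1.02, adjusted p 7.02e-06). Over the 556 tested non-members of chromosome 8, 53.2% were higher and 24.8% lower, with a median log2 fold change of 0.66, and with the GC and length trend removed 48.4% were higher and 24.1% lower, with a median of 0.32. On chromosome 7, which held 5 members, 38.8% of the 848 tested non-members were higher and 35.3% were lower, with a median of 0.09. Among the 15 chromosomes with members, the share higher ran from 15.2% on chromosome 22 to 58.2% on chromosome 4. With the GC and length trend removed it ran from 18.9% on chromosome 14 to 48.4% on chromosome 8.

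The gene families of the members held genes that changed in both directions, and the balance of several lists depended on the scaling. Members on a list are included in its counts and median, and the selection fixes their calls. Of 20 tested neural adhesion genes, 11 were higher, CNTN6 among them, and 5 were lower, with a median log2 fold change of 0.66. NLGN1, a postsynaptic neuroligin, was higher by 1.83 ± 0.14 (adjusted p 3.85e-07), whereas its paralogue NLGN2 was lower by -2.14 ± 0.11 (adjusted p 4.85e-08); with the GC and length trend removed these were 0.59 and -0.76. Of 5 tested glutamate and GABA receptor subunits, 2 were higher, GRIK2 among them, and GRIN2B was lower, at 0.446, 0.367 and 0.659 CPM in resistant libraries against 5.53, 4.38 and 5.15 CPM in control libraries (-3.69 ± 0.27, adjusted p 2.85e-07). The receptor family thus held changes in both directions. Of 195 tested solute carriers, 74 were higher, SLC26A7 among them, and 83 were lower, with a median of -0.03; with library size alone 91 were higher and 63 lower, and with the GC and length trend removed 81 were higher and 60 lower. Of 12 tested adhesion G protein-coupled receptors, 6 were higher, ADGRB3 among them, and 4 were lower, with a median of 0.13. Of 21 tested potassium channel genes, 8 were higher and 7 were lower, against 12 and 6 with library size alone and 10 and 1 with the GC and length trend removed. Of 3 sodium channel alpha subunits 1 was higher and 1 was lower. Over the 24 lists together 169 of 460 tested genes were higher and 177 were lower, with members counted among them, beside the 39.3% and 36.9% of all genes. With library size alone 212 were higher and 133 lower, and with the GC and length trend removed 194 were higher and 121 lower.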

How the data were processed

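The deposited file holds whole-number read counts for each gene symbol in each library, made by the authors; HISAT2 2.0.4 is named per the submitters' processing notes. How reads were assigned to genes, with which strand setting, build and annotation, is not given in the sources used here. Reads of overlapping or antisense genes, and of near-identical copies, may be counted together or split. Libraries were grouped by title and phenotype label. Between libraries of 1 line the counts differed beyond sampling error, with 8.94 to 62.9 chi-square units per degree of freedom, and each was counted as 1 sample.

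Levels are CPM, counts over the column total times 1000000. Fold changes and adjusted p-values come from the quasi-likelihood test of edgeR 4.0.16 under R 4.3.3, after filterByExpr. TMM factors were 1.12 to 1.14 in resistant and 0.867 to 0.913 in control libraries. Benjamini-Hochberg adjustment covered 16642 genes at 0.05, and the fit used 3 libraries of each line with no covariate. The code was also run on simulated counts with few changed genes and no GC trend. That setting differs from these libraries, so the simulation does not say how the test behaves here. Standard errors were taken as |log2 fold change| divided by the root of the F statistic. GC content and length came from GENCODE release 29 transcripts. For the GC and length adjustment, natural splines (6 and 5 degrees of freedom) on each library's deviation from a gene's mean served as an offset. Members were matched to RefSeq GRCh38.p14 by symbol (36) or by the gene ID in a LOC name (2), for gene kind, order and chromosome. Replicate numbers are only names: same-numbered libraries correlated at -0.13 to -0.01 in their deviations. Intervals cover counting error only.

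The members, lists and tests were chosen with earlier results of these data known. Values per library are given for the 20 members with the highest mean resistant CPM, for members beside another member or within 3 genes of one, for members on a list and for genes next to a limit; neighbours and up to 4 family partners with the smallest p are also named. Alternatives were DESeq2 1.42.0, upper-quartile and library-size scaling, no filter, other limits, the 3 nearest neighbours, and leaving out each library; counts of neighbours without PCLO or overlapping genes were added after seeing the data.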

Additional observations from a re-analysis of the deposited data

How the results depend on the processing

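The number of genes that meet the limits, 47, was 11 with a resistant minimum of 10 CPM, 8 with a control maximum of 0.1 CPM and 31 with TMM-scaled CPM, all of them among the 47; leaving out 1 library at a time gave 41 to 56. The calls of members were all higher in every alternative, with 20 under the GC and length adjustment because only 20 have a GC value. Genes higher in resistant cells ranged from 6179 to 6789 and genes lower from 5894 to 6410 when 1 library was left out, and members called higher stayed at 47. In each alternative fit, neighbours were found again among the genes that fit tested. Neighbours called higher were 47, between 43 and 47 without 1 library, 37 with DESeq2 or no filter, 49 with library size alone, 32 with the GC and length adjustment, and 119 with the 3 nearest genes on each side. Neighbours called lower were 11, between 9 and 12 without 1 library, 6 with library size alone, with no filter and with DESeq2, 17 with the GC and length adjustment and 37 with the 3 nearest genes on each side; the last is larger because more genes are counted, and the cause of the others was not tested. The median spread between resistant libraries, 1.52, was 1.09 to 1.47 without 1 resistant library, lowest without replicate 1. List genes higher were 158 to 182 and lower 173 to 183 without 1 library, 212 and 133 with library size alone, and 194 and 121 with the GC and length adjustment. Leaving out PCLO, an alternative chosen after seeing the data, left 46 neighbours higher and 11 lower.

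Replicate numbers do not pair the libraries. With the replicate number as a block, 6246 genes were higher and 5851 lower, 47 members were higher, 46 neighbours were higher and 9 lower, and 164 list genes were higher and 170 lower.

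Counting error in control libraries is large: a member had 1 to 74 counts in all control libraries together, so the intervals of the lowest are wide.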
